A study of Mus musculus with 41 samples.

Results

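The 9 genes described here are Mrc1, Retnla, Chil3, Igf1, Spp1, Trem2, Gpnmb, Cd163 and Tgfbi, a panel used to mark macrophages that clear debris and rebuild tissue after injury. They were taken by name from the 21755 protein-coding genes on chromosomes 1 to 19 and X of the mm10 (GRCm38) mouse genome, and all 9 were found in the annotation. For each gene, peaks of 4 histone modifications were collected at the promoter, defined as 2 kb to either side of any annotated transcription start site (TSS), and in a window spanning the gene body and 20 kb on each side. The question put to them was how H3K18la, the lactyl mark on lysine 18 of histone H3, lay on these genes in macrophages grown in culture and in macrophages taken from damaged muscle, beside H3K27ac, H3K4me3 and H3K27me3.

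The data were peak lists from CUT&Tag, where antibody-tethered transposase cuts DNA beside the mark of interest. There were 24 lists from 41 samples of 8 cell types, with 8 lists for H3K18la, 5 for H3K27ac, 4 for H3K4me3 and 7 for H3K27me3. Bone marrow-derived macrophages (BMDM) came from C57BL/6 marrow cells cultured for 7 days with M-CSF and then for 24 h without it. Post-ischemia macrophages (PIM) were CD45+CD11b+F4/80+CD64+ cells sorted from the calf muscle of female C57Bl6/J mice, 8 to 12 weeks old, 2 days after the arteries of the hind limb had been ligated. The other lists came from whole gastrocnemius muscle (GAS) of such mice, bead-bound nuclei from epididymal fat of 10-week-old female AdipoCre-NuTRAP mice (ADIPO, in which an adipocyte-driven Cre tags the nuclei), primary C57BL/6 myoblasts (MB) and the myotubes made from them (MT), and E14 embryonic stem cells, a single line, in serum-LIF (ESC-ser) or 2i-LIF (ESC-2i). All were labelled as controls. Each list pooled the samples of its group, 2 for 17 groups and 1 for 7, so no value below has a replicate error and no test between groups could be made. The BMDM lists for H3K18la, H3K27ac and H3K27me3 each held 1 sample, and there was no BMDM list for H3K4me3. The PIM lists held 2 samples each, except H3K27ac with 1. Whole muscle contains macrophages of its own, and in a pooled list a mark on few cells cannot be told apart from a weak mark on many.

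Macrophages that enter injured tissue first engulf dead cells and debris and later support regrowth, and the panel covers both sides of that programme. Mrc1 and Cd163 encode scavenger receptors of the cell surface, Retnla and Chil3 encode secreted proteins strongly induced by IL-4 in mice, and Igf1, Spp1 and Tgfbi encode secreted factors that act on muscle, matrix and cell adhesion. Trem2 is a lipid-sensing receptor of phagocytes, and Gpnmb is a membrane protein of lipid-loaded macrophages. H3K27ac and H3K4me3 mark active enhancers and promoters, H3K27me3 marks Polycomb-repressed chromatin, and H3K18la is a lactate-derived mark described on both promoters and enhancers.

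Regions described further on are printed first. In 7 of the 9 windows, a PIM H3K18la peak with its maximum more than 2000 bp from the TSS of any protein-coding gene also overlapped a BMDM H3K18la peak. The share of all gene windows with such a peak was not computed, so 7 of 9 has no background. The highest of these PIM peaks in each window, by its maximum, was read as 300 bases of GRCm38 around that maximum, 5′ to 3′ along the strand of the gene. Capitals mark matches, on either strand, to PU.1 (AGGAAGT), AP-1 (TGANTCA), C/EBP (TTGCNNAA), STAT6 (TTCNNNNGAA) or the E-box (CACGTG). The 5 regions shown are those that held the AP-1 letters, whose maxima lay 2.3 kb into Mrc1, 9.6 kb past the 5′ end of Trem2 and thus beyond its 3′ end, -8.3 kb from Gpnmb, -7.1 kb from Cd163 and -8.1 kb from Tgfbi (negative distances are upstream).
Mrc1 downstream element, chr2:14231501-14231800, plus strand: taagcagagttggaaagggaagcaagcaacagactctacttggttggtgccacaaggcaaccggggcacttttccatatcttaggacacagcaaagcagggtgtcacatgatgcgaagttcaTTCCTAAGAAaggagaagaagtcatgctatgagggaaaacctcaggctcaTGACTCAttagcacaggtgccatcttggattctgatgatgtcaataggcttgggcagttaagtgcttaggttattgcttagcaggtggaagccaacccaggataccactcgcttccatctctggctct
Trem2 downstream element, chr17:48355875-48356174, plus strand: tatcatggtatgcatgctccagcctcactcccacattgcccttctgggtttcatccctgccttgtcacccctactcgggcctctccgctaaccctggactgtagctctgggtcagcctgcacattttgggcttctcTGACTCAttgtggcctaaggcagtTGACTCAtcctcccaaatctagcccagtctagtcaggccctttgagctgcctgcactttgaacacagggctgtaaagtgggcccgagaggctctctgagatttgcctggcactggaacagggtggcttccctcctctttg
Gpnmb upstream element, chr6:49028115-49028414, plus strand: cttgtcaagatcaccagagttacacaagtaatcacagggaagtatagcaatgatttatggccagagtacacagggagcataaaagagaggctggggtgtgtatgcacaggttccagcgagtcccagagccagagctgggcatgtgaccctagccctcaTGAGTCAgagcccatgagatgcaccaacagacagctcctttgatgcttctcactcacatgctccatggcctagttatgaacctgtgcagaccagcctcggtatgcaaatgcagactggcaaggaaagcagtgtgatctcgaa
Cd163 upstream element, chr6:124297436-124297735, plus strand: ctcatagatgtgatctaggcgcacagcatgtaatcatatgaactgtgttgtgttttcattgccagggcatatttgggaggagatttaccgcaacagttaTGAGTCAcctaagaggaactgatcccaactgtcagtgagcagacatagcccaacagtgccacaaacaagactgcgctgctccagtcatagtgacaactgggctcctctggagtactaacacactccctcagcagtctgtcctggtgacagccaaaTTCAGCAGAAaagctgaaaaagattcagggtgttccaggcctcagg
Tgfbi upstream element, chr13:56601285-56601584, plus strand: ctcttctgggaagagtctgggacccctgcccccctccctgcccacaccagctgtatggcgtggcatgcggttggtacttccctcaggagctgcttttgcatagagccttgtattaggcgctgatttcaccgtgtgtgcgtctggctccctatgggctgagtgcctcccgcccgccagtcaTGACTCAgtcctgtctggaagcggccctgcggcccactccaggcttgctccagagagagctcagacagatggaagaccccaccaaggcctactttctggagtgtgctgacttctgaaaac
The Mrc1 region lies in the body of the gene, the Trem2 region lies between the 3′ end of Trem2 and Treml1, and the other 3 lie upstream of their genes. The remaining regions, at -9.1 kb from Spp1 and -16.0 kb from Igf1, held no AP-1 letters: the Spp1 region held a PU.1 match, and the Igf1 region, next to a run of CA repeats, held none of the 5 motifs. AP-1 letters were thus present in 5 of 7 regions, and in 37.5% of the 9826 regions at distal PIM H3K18la maxima over the genome whose peak overlapped a BMDM peak. These were all such maxima, not the highest in each gene window, so the shares are not like for like. The shares for the other motifs were 1 of 7 against 25.6% for PU.1, 2 of 7 against 8.08% for STAT6, 0 of 7 against 17.3% for C/EBP and 0 of 7 against 5.67% for the E-box. A letter match is a description of the sequence and does not show binding.

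Of the 7 regions, 6 were also called for H3K27ac in PIM, all but that of Gpnmb, where 58.3% of the 9826 regions were. The same 6 were called for H3K4me3 in PIM, against 56.0%. The Mrc1 region counts as distal only because its maximum lay 2258 bp from the TSS: its PIM peaks of H3K18la, H3K27ac and H3K4me3 are the promoter peaks of Mrc1, so that gene enters both here and in the promoter counts. In BMDM, 4 were called for H3K27ac (Igf1, Spp1, Trem2 and Tgfbi), against 50.1%. H3K18la of a cell type other than macrophages covered 4 of the 7, against 65.7%. These were Spp1 in MB and MT, Trem2 in MT, Gpnmb in ESC-2i and Tgfbi in GAS and MT. The Mrc1, Igf1 and Cd163 regions were therefore called in none of the 6 H3K18la lists of other cell types. All 7 regions were chosen for H3K18la peaks in both PIM and BMDM, so their macrophage H3K18la calls are not a result.

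At promoters, BMDM and PIM carried H3K18la on the same 7 genes. Mrc1, Igf1, Spp1, Trem2, Gpnmb, Cd163 and Tgfbi were called in both lists, and Retnla and Chil3 in neither. The background differed: 18.5% of all protein-coding promoters were called in BMDM and 37.8% in PIM, so that the same count stood further above the background in BMDM. Over the genome, 17.2% of promoters were called in both lists, 20.6% in PIM and not BMDM, and 1.34% in BMDM and not PIM. None of the 9 genes fell into either of the last groups. When the PIM list was reduced, by signal, to the 22.6 Mb called in BMDM, 6 of the 7 genes kept their call, and Cd163 was then called in BMDM alone. The reduced PIM list called 6.84% of all promoters.

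H3K27ac followed the same genes less completely. In BMDM it was called on 5 promoters (Igf1, Spp1, Trem2, Gpnmb and Tgfbi) against a background of 34.0%, and in PIM on 7, with Mrc1 and Cd163 added, against 48.8%. The share of all promoters called was 33.2% in both, 15.5% in PIM and not BMDM, and 0.777% in BMDM and not PIM, where the 9 genes counted 5, 2 and 0. With the BMDM list reduced to the 27.4 Mb called in PIM, Spp1 and Tgfbi left it, and 4 genes were called in PIM alone. The reduced BMDM list called 27.7% of all promoters, and the share called in PIM alone was not computed at this setting. H3K4me3, measured in PIM only, was called on the same 7 promoters as H3K18la against a background of 59.4%. In PIM these 7 promoters all carried H3K18la, H3K27ac and H3K4me3 together, against 34.0% of all genes.

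H3K27me3 was absent from the promoters and windows of all 9 genes in BMDM, where 19.2% of all promoters and 34.8% of all windows were called. In PIM it was called on the promoter of Igf1 alone, against 26.4%. The share of all promoters called was 17.7% in both cell types, 8.77% in PIM and not BMDM, and 1.55% in BMDM and not PIM, and Igf1 was the only one of the 9 in any of these. Igf1 carried all 4 marks on its PIM promoter, a state shared with 4.9% of all genes.

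**Figure D1:**
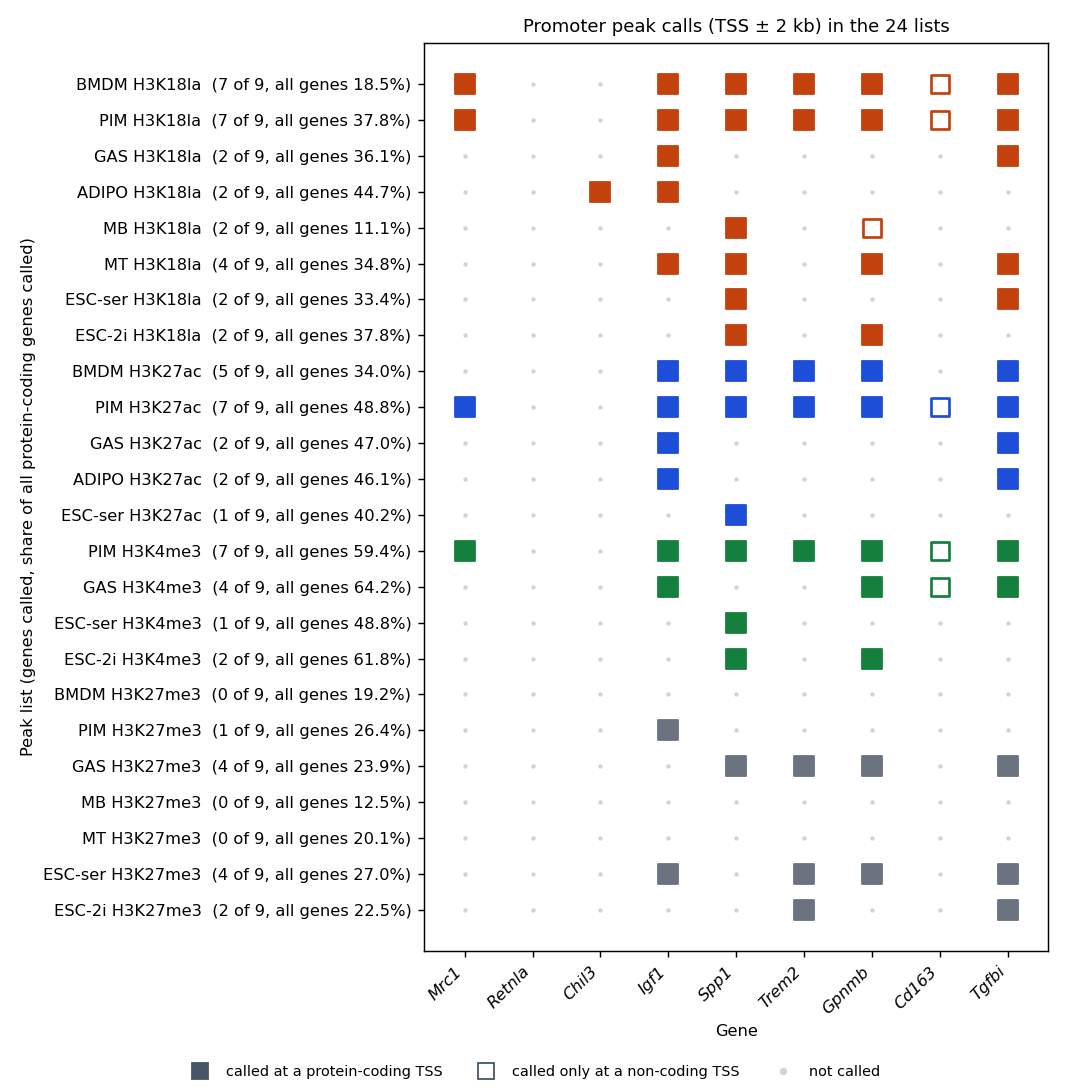
Promoter calls of the 9 genes (columns) in the 24 peak lists (rows), with filled squares for a peak within 2 kb of a protein-coding TSS, open squares for a peak only at a TSS of a non-coding transcript, and dots for no peak; row labels give the count and the share of all protein-coding genes called. The BMDM and PIM rows for H3K18la hold the same 7 genes, and Retnla is empty in every row.

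The peaks themselves differed in width between the macrophage lists, and the lists differed as a whole: median H3K18la widths were 916 bp for BMDM and 1615 bp for PIM. At the Trem2 promoter the BMDM peak spanned 2010 bp and ranked at the 83.6th percentile of total signal in its own list, and the PIM peak spanned 5034 bp and ranked at the 96.9th. The percentile is the share of peaks in the same list with no more total signal, and it is used because the deposited signals were not scaled for depth. For Mrc1 the promoter peak with the most signal spanned 1782 bp in BMDM (67.5th percentile) and 6506 bp in PIM (95.9th). For Spp1 the widths were 964 bp (53.1st percentile) and 4771 bp (87.1st). Gpnmb had 1237 bp (84.7th percentile) in BMDM and 5020 bp (94.2nd) in PIM. Tgfbi had 1251 bp (88.8th percentile) in BMDM and 9407 bp (97.9th) in PIM. These 5 genes had the higher percentile in PIM. At Mrc1 and Tgfbi the PIM peak covered 3 BMDM peaks, and only the BMDM promoter peak with the most signal is compared here. Another BMDM peak under the PIM peak of Mrc1, from 3.5 to 4.7 kb, ranked at the 76.1st percentile of total signal. By its maximum that peak ranked at the 70.4th. The lists held 19571 peaks in BMDM and 32066 in PIM, and a percentile depends on how many weaker peaks were called. By the maximum of the peak, the percentiles in BMDM and PIM were 73.3 and 95.9 for Trem2, 43.1 and 96.8 for Mrc1, 81.3 and 84.4 for Gpnmb, 93.4 and 96.0 for Tgfbi and, with hardly any difference, 69.0 and 69.8 for Spp1.

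The other 2 promoters with H3K18la had the lower percentile of total signal in PIM. Igf1 ranked at the 91.8th percentile in BMDM with a peak of 3281 bp and at the 89.9th in PIM with 5330 bp, while by the maximum the order turned, to the 72.5th and the 81.5th. Cd163 ranked at the 27.4th in BMDM with 318 bp and at the 0.727th in PIM with 1168 bp, near the bottom of the PIM list. The median percentile over the 7 called promoters was 83.6 in BMDM and 94.2 in PIM.

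**Figure D2:**
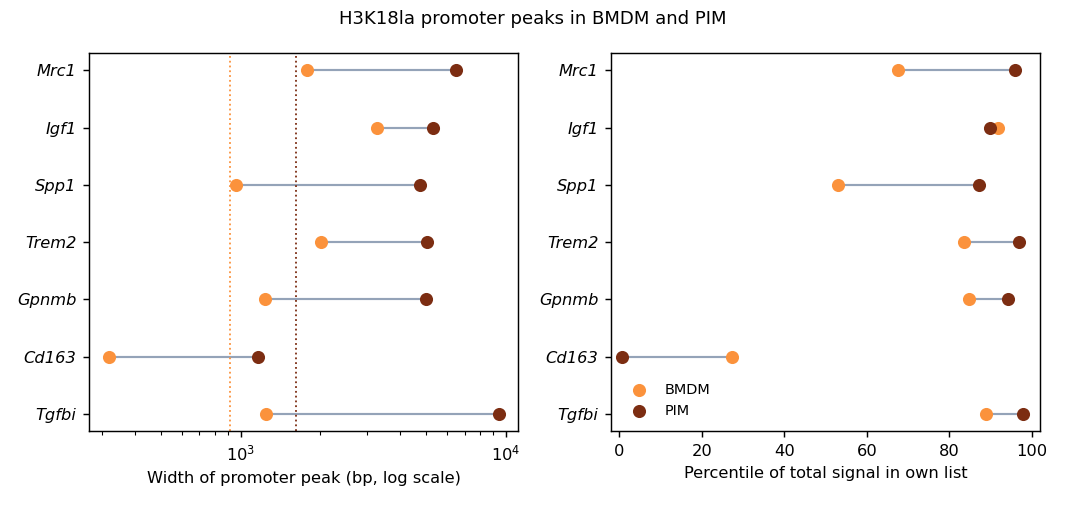
Width in bp on a log scale (left) and percentile of total signal within its own list (right) of the H3K18la promoter peak with the most signal in BMDM (orange) and PIM (brown) for the 7 genes called; dotted lines are the median widths of the lists, 916 and 1615 bp. The PIM peak is wider for all 7 genes, and its percentile of total signal is higher for 5 of them.

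The calls for Cd163 in both macrophage types, and the H3K18la call for Tgfbi in BMDM, lay away from the annotated 5′ end. The Cd163 peaks lay between 15.0 and 15.3 kb from the 5′ end in BMDM and between 16.5 and 17.7 kb in PIM, at the TSS of a non-coding transcript inside the gene, and the H3K27ac and H3K4me3 calls of Cd163 in PIM were at the same place. No macrophage list had a peak at a protein-coding TSS of Cd163, the haemoglobin scavenger receptor of resident tissue macrophages. Counting only protein-coding transcripts left 6 genes with H3K18la in each cell type, against the 7 above. The same rule called 17.0% of all genes in BMDM and 36.1% in PIM. The BMDM peak of Tgfbi began 2.0 kb past the 5′ end and ended at 3.2 kb, so it met the promoter at the 5′ end only at its edge, whereas the PIM peak ran from -2.2 to 7.2 kb across that TSS. A further BMDM peak, from 16.8 to 17.6 kb, lay within 2 kb of the TSS of a non-coding transcript inside Tgfbi. With only protein-coding transcripts counted, the BMDM call of Tgfbi therefore rested on the edge peak alone, which began 1988 bp past the 5′ end.

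Beyond the promoters, the 9 windows held 34 H3K18la peaks in BMDM and 38 in PIM, the latter wider. A peak fell in the window of 7 genes in BMDM, against 40.0% of all genes, and of 8 genes in PIM, against 59.9%, with Retnla added. For H3K27ac the counts were 5 genes against 51.4% in BMDM and 7 genes against 64.2% in PIM. H3K4me3 was called in 7 windows in PIM, against 72.3%, and H3K27me3 in 4 (Chil3, Igf1, Spp1 and Gpnmb), against 47.0%. By position, 15 of the 34 H3K18la peaks in BMDM were upstream of the gene, 11 at a promoter of the gene itself, 5 in the gene body and 3 downstream. In PIM, 19 of 38 were upstream, 9 at the gene's own promoter, 5 in the gene body, 3 downstream and 2 over the promoter of the neighbouring gene Treml1. No such split was computed for all genes, and the 20 kb flank is longer than the promoter. The larger upstream counts are therefore not read as a trait of the panel.

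Most BMDM peaks in the windows lay where PIM also had one. Of the 34 BMDM peaks, 31 (91.2%) overlapped a PIM H3K18la peak, against 80.7% of all BMDM peaks. In the other direction 23 of 38 PIM peaks (60.5%) overlapped a BMDM peak, against 41.4%. The maxima of the 31 overlapping pairs lay a median of 235 bp apart, and 14 pairs were within 100 bp. Over all 15790 such pairs the median was 119.5 bp, and 46.4% were within 100 bp. The PIM peak was the wider in 30 of the 31 pairs and in 91.7% of all pairs. Of the PIM peaks that met BMDM peaks of the windows, 16 met 1, 3 met 2, and 3, at Mrc1, Igf1 and Tgfbi, met 3.

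Overlap of the window peaks with the other marks of the same cells was at or below that of all peaks in the list. BMDM H3K27ac overlapped 16 of the 34 BMDM peaks (47.1%), against 51.4% of all BMDM H3K18la peaks. PIM H3K27ac overlapped 19 of the 38 PIM peaks (50%), against 51.8%, and PIM H3K4me3 overlapped 17 (44.7%), against 52.9%. An H3K18la peak of any other cell type overlapped 22 of the 34 BMDM peaks (64.7%), against 67.2%, and 21 of the 38 PIM peaks (55.3%), against 69.4%.

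Trem2 (chr17:48346401-48354147, plus strand) had the highest-ranked H3K18la peak of the panel in PIM. The PIM H3K18la peak downstream of the gene, from 7.4 to 12.2 kb, ranked at the 98.5th percentile of total signal and the 99.8th by its maximum. The BMDM peak there, from 9.3 to 10.6 kb, ranked at the 86.3rd and the 93.4th. H3K27ac had its maximum at the same place, at the 99.5th percentile in PIM and the 86.9th in BMDM, and the PIM H3K4me3 peak there ranked at the 52.9th. The PIM H3K18la peak reached into the promoter of Treml1, a related receptor gene, so it cannot be assigned to Trem2 by position.

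Tgfbi (chr13:56609523-56639562, plus strand), which encodes a matrix protein induced by TGF-beta, had the widest macrophage H3K18la coverage. Peaks covered 35.8% of its window in PIM, above 99.0% of all genes in that list or level with them, and 11.9% in BMDM, at the 97.8th percentile. The upstream peak had its maximum at -8.1 kb in all 4 macrophage lists of H3K18la and H3K27ac, and its maximum ranked at the 96.4th percentile in BMDM H3K18la, the 96.9th in PIM H3K18la, the 77.0th in BMDM H3K27ac and the 90.1st in PIM H3K27ac. At the promoter, the PIM H3K27ac peak of 7049 bp ranked at the 99.5th percentile of total signal and the BMDM H3K27ac peak of 2453 bp at the 9.18th. The PIM peak also covered another BMDM H3K27ac peak, of 1693 bp. By their maxima, these BMDM peaks ranked at the 11.6th and the 51.5th percentile, and the PIM peak at the 83.0th.

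Spp1 (chr5:104435118-104441050, plus strand), the gene of osteopontin, had H3K18la over 6.72% of its window in BMDM and 25.5% in PIM. In PIM the peaks stood at the promoter, at -9.1 kb, at -4.4 kb, at -12.4 kb and at 10.7 kb past the 5′ end, and in BMDM at the promoter, at -8.9 kb and at 10.6 kb. An H3K27me3 domain of 14346 bp in PIM began 10.1 kb past the 5′ end, beyond the 3′ end of Spp1, and reached the promoter of Pkd2, the next gene. The downstream H3K18la peak of PIM lay at the near edge of that domain. The H3K27ac peak at the Spp1 promoter ranked at the 7.56th percentile of total signal in BMDM, with 1228 bp, and the 32.2nd in PIM, with 438 bp. By its maximum it ranked at the 11.6th in BMDM and, mid-list, at the 54.3rd in PIM.

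Igf1 (chr10:87858265-87937042, plus strand), the growth factor gene, was the promoter with H3K27me3. The PIM H3K27me3 domain spanned 18584 bp from -3.4 to 15.1 kb at the 94.6th percentile of total signal. Inside it lay H3K18la from -1.8 to 3.5 kb, H3K4me3 from -1.9 to 3.3 kb and 2 short H3K27ac peaks. The H3K27ac peak with more total signal ranked at the 21.6th percentile. BMDM had no H3K27me3 there, and its H3K27ac peak of 6520 bp ranked at the 95.0th percentile. Upstream, H3K18la peaked at -15.6 kb in BMDM (87.8th percentile of total signal) and at -16.0 kb in PIM (96.7th). Sorted PIM are a population, and whether the active marks and H3K27me3 lay on the same cells was not tested.

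Gpnmb (chr6:49036546-49070929, plus strand) had a string of upstream peaks. BMDM H3K18la had 6 peaks between -15.9 and -3.3 kb besides the promoter, the strongest with its maximum at -9.9 kb (95.6th percentile by its maximum), whereas in PIM the highest distal maximum was at -8.3 kb (90.9th). H3K27ac at the Gpnmb promoter ranked at the 95.4th percentile of total signal in BMDM, with 5448 bp, and the 56.1st in PIM, with 1625 bp. The PIM H3K27ac list had a median width of 956 bp and the BMDM list 2137 bp, the reverse of the H3K18la lists. Mrc1 (chr2:14229392-14332057, plus strand), the mannose receptor gene, had H3K18la over 3.35% of its window in BMDM and 8.61% in PIM, and its PIM maximum at 2.3 kb ranked at the 96.8th percentile. H3K27ac covered the same place in PIM, at the 83.1st percentile of total signal, and was not called in the Mrc1 window in BMDM.

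Cd163 (chr6:124304656-124330527, plus strand) was marked at a distance rather than at its 5′ end. The peak at -7.1 kb was called for H3K18la in BMDM and PIM and for H3K27ac and H3K4me3 in PIM, with maxima at the 60.3rd, 94.4th, 77.4th and 40.3rd percentiles. No H3K27ac peak fell in the Cd163 window in BMDM.

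**Figure D3:**
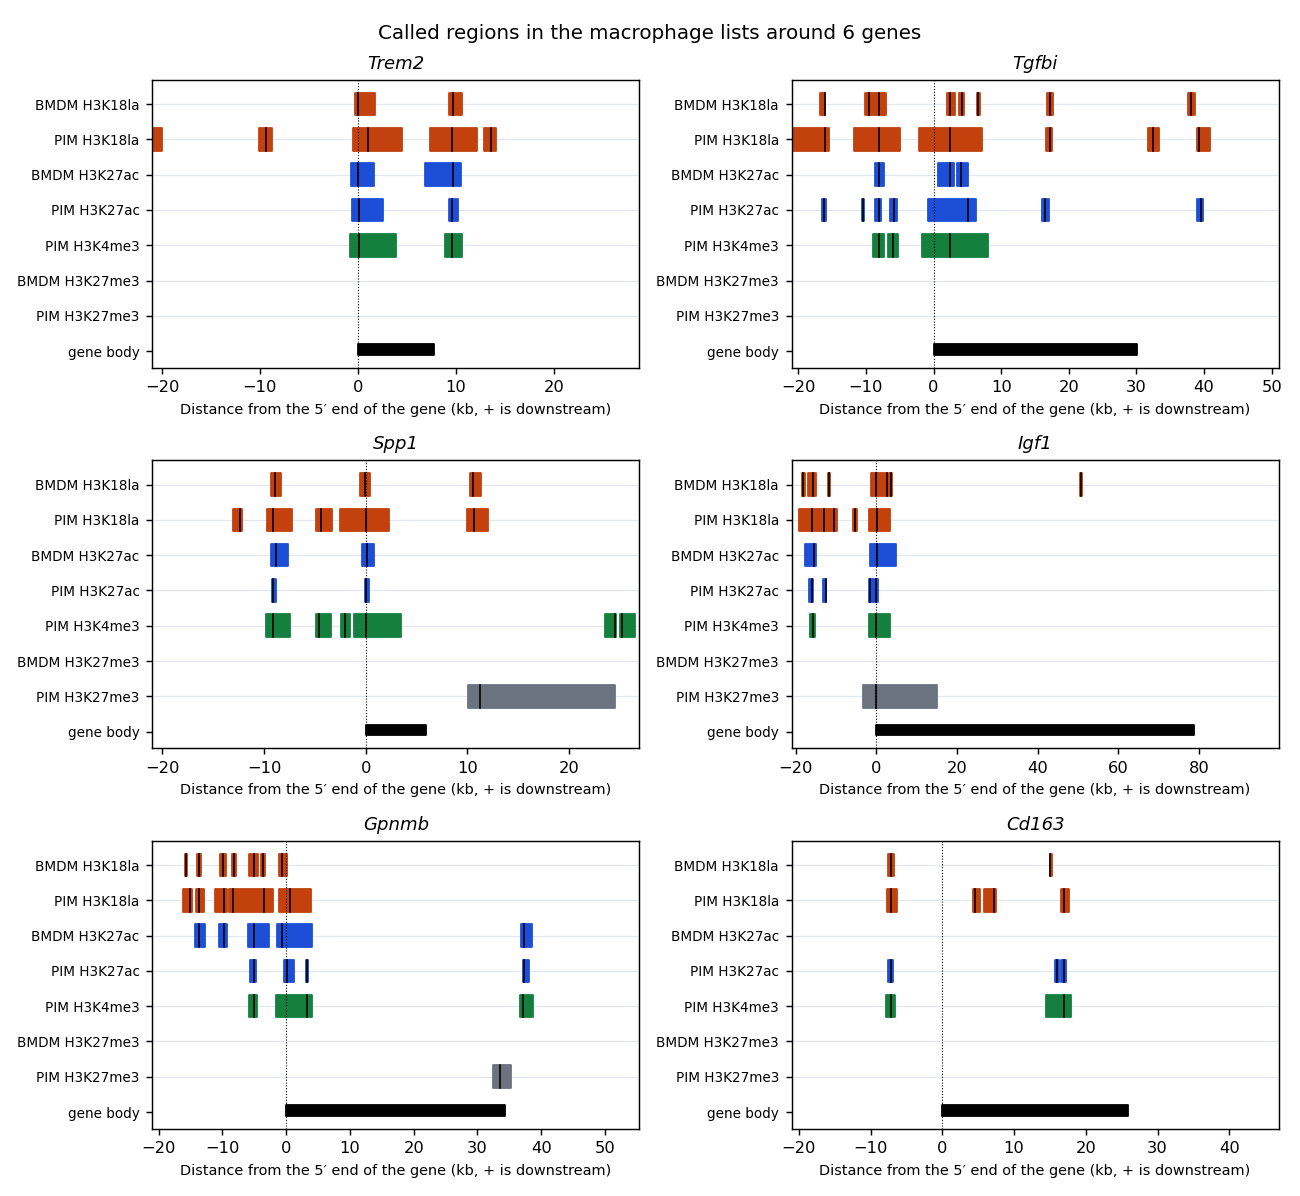
Peaks of the 7 macrophage lists around 6 genes, by distance in kb from the 5′ end of each gene (positive is downstream); bars are called regions, cut at the edge of the plot, black ticks are their maxima, and the black bar is the gene body. The H3K18la maxima of BMDM and PIM line up at Cd163 (-7.1 kb) and Tgfbi (-8.1 kb), and gray H3K27me3 regions appear only in PIM, at Igf1, beyond Spp1 and at the 3′ end of Gpnmb.

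Retnla and Chil3 stood apart from the other 7. The Retnla window (gene at chr16:48842551-48844461, plus strand) held a single macrophage peak, H3K18la in PIM from -11.8 to -10.2 kb, at the 5.9th percentile of total signal and the 0.29th by its maximum. The Chil3 window (gene at chr3:106147554-106167564, minus strand) held a single macrophage peak too, H3K27me3 in PIM from 33.8 to 36.0 kb, beyond the 3′ end, at the 5.22nd percentile. Outside macrophages, Retnla had 1 peak in its window, H3K4me3 in ESC-2i over 2.62% of it. Chil3 had H3K18la on its promoter in ADIPO, in a peak of 1153 bp from -1.4 to -0.2 kb at the 36.9th percentile, with H3K18la over 7.63% and H3K27ac over 4.46% of the window. Of the 8 macrophage markers named further on, 3 had promoter H3K18la in ADIPO (Spi1, Lyz2 and Cd68), 3 in cultured MT (Spi1, Cd68 and Csf1r), 2 in GAS, 1 in each stem cell list, 0 in MB and 8 in BMDM and PIM. The counts in ADIPO (37.5%), MT (37.5%) and GAS (25%) stand beside 44.7%, 34.8% and 36.1% of all genes, and the part of macrophages in the ADIPO peak was not tested. Both genes have close relatives in the genome, and how reads were shared among such copies was not tested.

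Their promoters are shown because no macrophage list called an active mark on them, with that of Trem2, called in every macrophage list of an active mark, for comparison. Each is 300 bases of RefSeq sequence on GRCm38, 250 before and 50 after the start site, with capitals for the same 5 motifs; all 9 genes had an entry.
Retnla promoter, chr16:48842359-48842658, plus strand: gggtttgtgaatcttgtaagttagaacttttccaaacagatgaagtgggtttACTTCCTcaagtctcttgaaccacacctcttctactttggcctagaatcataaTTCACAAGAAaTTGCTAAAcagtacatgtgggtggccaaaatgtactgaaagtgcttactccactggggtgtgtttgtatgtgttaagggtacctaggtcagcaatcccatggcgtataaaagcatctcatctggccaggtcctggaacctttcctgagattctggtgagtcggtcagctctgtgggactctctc
Chil3 promoter, chr3:106167515-106167814, minus strand: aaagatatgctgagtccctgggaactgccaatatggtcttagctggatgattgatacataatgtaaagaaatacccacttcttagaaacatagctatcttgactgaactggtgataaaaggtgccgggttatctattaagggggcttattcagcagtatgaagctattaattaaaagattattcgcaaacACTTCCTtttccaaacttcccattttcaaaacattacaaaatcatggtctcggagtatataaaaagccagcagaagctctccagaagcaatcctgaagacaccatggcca
Trem2 promoter, chr17:48346151-48346450, plus strand: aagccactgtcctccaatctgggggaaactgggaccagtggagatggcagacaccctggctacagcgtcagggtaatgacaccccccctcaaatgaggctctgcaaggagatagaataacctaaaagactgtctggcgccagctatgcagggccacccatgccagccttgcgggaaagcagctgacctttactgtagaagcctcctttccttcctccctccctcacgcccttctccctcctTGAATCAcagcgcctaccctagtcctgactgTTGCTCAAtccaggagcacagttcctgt
The Retnla promoter held the letters of PU.1, STAT6 and C/EBP, the Chil3 promoter those of PU.1, and the Trem2 promoter those of AP-1 and C/EBP. STAT6 letters, which mark the factor that acts downstream of IL-4, were in 1 of the 10 promoter entries of the panel (Spp1 has 2 entries) and in 6.98% of all 32544 promoters. PU.1 letters were in 4 of 10 (Mrc1, Retnla, Chil3 and Spp1) and 9.27% of all, AP-1 letters in 3 of 10 (Igf1, Trem2 and Gpnmb) and 7.79%, C/EBP letters in 3 of 10 (Retnla, Spp1 and Trem2) and 10.8%, and the E-box in 0 of 10 and 7.17%.

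Across the other cell types the panel split by gene. In GAS H3K18la 2 promoters were called (Igf1 and Tgfbi; background 36.1%), in ADIPO 2 (Chil3 and Igf1; 44.7%), in MB 2 (Spp1 and, at a non-coding TSS, Gpnmb; 11.1%), in MT 4 (Igf1, Spp1, Gpnmb and Tgfbi; 34.8%), in ESC-ser 2 (Spp1 and Tgfbi; 33.4%) and in ESC-2i 2 (Spp1 and Gpnmb; 37.8%). In each of these lists but MB and MT, the share of the panel was below the background. Mrc1, Trem2 and Cd163 had promoter H3K18la in BMDM and PIM and in none of the other 6 lists, a pattern shared with 1.05% of all genes. Spp1 was the most widely marked, in 6 of 8 H3K18la lists, followed by Igf1, Gpnmb and Tgfbi in 5, Mrc1, Trem2 and Cd163 in 2, Chil3 in 1 and Retnla in 0.

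The other active marks were called on overlapping but not identical sets of genes. H3K27ac was called on Igf1 and Tgfbi in GAS (background 47.0%) and in ADIPO (46.1%), and on Spp1 in ESC-ser (40.2%). H3K4me3 was called on Igf1, Gpnmb, Cd163 and Tgfbi in GAS (64.2%), on Spp1 in ESC-ser (48.8%) and on Spp1 and Gpnmb in ESC-2i (61.8%).

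H3K27me3 covered part of the panel in cells other than macrophages. It was called on Spp1, Trem2, Gpnmb and Tgfbi in GAS (23.9%), on Igf1, Trem2, Gpnmb and Tgfbi in ESC-ser (27%) and on Trem2 and Tgfbi in ESC-2i (22.5%), and on none of the 9 in MB (12.5%) or MT (20.1%). The Tgfbi domain was the broadest, with 10523 bp in ESC-ser and 18507 bp in ESC-2i, where H3K27me3 covered 65.4% of its window. In ESC-2i the Tgfbi window had no H3K18la, and in ESC-ser, where the H3K27me3 domain ran from -4.9 to 5.6 kb, one H3K18la peak, from -0.9 to 0.4 kb, lay inside it across the TSS and another, from 2.0 to 6.2 kb, lay across its edge. Trem2 had H3K27me3 at its promoter in GAS and both stem cell lists and active marks only in BMDM and PIM. Mrc1, Retnla, Chil3 and Cd163 had promoter H3K27me3 in none of the 7 lists.

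The share of each window under H3K18la peaks was larger in PIM than in BMDM for every gene but Chil3, which had no such peak in either. The mean over all genes was also larger in PIM, 5.03% against 1.54%. Set among all genes of its list, the share stood at a higher percentile in PIM for Spp1 (93.9 in BMDM, 97.0 in PIM), Trem2 (94.3, 97.0), Cd163 (77.2, 78.2) and Tgfbi (97.8, 99.0). It stood lower in PIM for Mrc1 (85.6, 79.8) and Igf1 (94.2, 87.4), and was level for Gpnmb (95.4, 95.3). With flanks of 5000 bp, 6 of the macrophage shares moved by more than 1.5 times. Among them were Igf1 in PIM, from 12.6% to 6.18%, and Retnla in PIM, from 3.93% to 0%. Igf1 in BMDM moved less, from 6.95% to 5.94%. The median over the 9 genes was 6.72% in BMDM and 12.6% in PIM, where the median over all genes was 0% and 1.95%. It was 6.63% in MT (all genes 3.15%), 1.88% in GAS (2.42%), 1.24% in ADIPO (2.66%), 1.63% in ESC-ser (2.01%), and 0% in MB (0%) and ESC-2i (4.22%). The 3 highest single values lay outside macrophages: Spp1 reached 58.9% in ESC-2i and 39.8% in ESC-ser, and Tgfbi 40.6% in GAS. Tgfbi in PIM and Igf1 in ADIPO, both at 35.8%, and Tgfbi in MT, at 35.7%, followed. Trem2 was highest in PIM, with 25.8%, followed by ESC-ser with 7.48%, BMDM with 6.97%, MT with 3.66% and 0% elsewhere. Cd163 had H3K18la in its window only in PIM, 7.96%, and BMDM, 1.91%. The order of cell types within a gene also reflects how much of the genome each list called, from 22.6 Mb in BMDM to 137 Mb in MT.

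**Figure D4:**
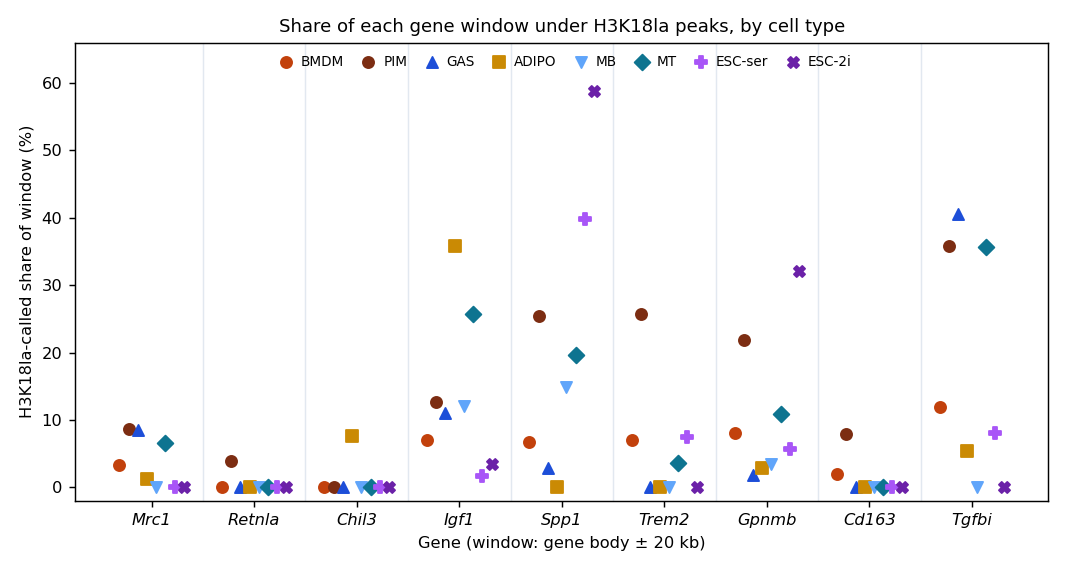
Share of each gene window (gene body and 20 kb on each side, in percent) under H3K18la peaks in the 8 cell types, 1 point per list. Trem2 and Cd163 are highest in PIM, Spp1 and Gpnmb in ESC-2i, Igf1 in ADIPO and Tgfbi in GAS, and Retnla is above 0 in PIM alone.

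Other genes of the macrophage programme were read from 5 lists of genes named with the panel. Beside them, promoter H3K18la was called on 18.5% of all genes in BMDM, 37.8% in PIM and 20.6% in PIM and not BMDM, H3K27ac on 34.0% and 48.8%, H3K4me3 on 59.4% in PIM, and H3K27me3 on 19.2% and 26.4%. Of 19 other genes of alternative activation, 5 promoters (26.3%) had H3K18la in BMDM and 12 (63.2%) in PIM, with none called in BMDM alone. The 7 (36.8%) added in PIM were Fn1, Ccl24, Socs2, Clec10a, F13a1, Hbegf and Pdcd1lg2, and Il10, Il1rn, Cd36, Tgfb1 and Vegfa were called in both. H3K27ac was called on 6 (31.6%) in BMDM and 9 (47.4%) in PIM and H3K4me3 on 11 (57.9%) in PIM, near the shares of all genes, and H3K27me3 on 7 (36.8%) in BMDM and 6 (31.6%) in PIM. Chil4 and Retnlg, the relatives of Chil3 and Retnla, had no H3K18la in either, and Chil4 had H3K27me3 in PIM.

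Of 18 regulators, 13 (72.2%) had promoter H3K18la in BMDM and all 18 in PIM. The 5 (27.8%) called in PIM and not BMDM, against 20.6% of all genes, were Mitf, Pparg, Maf, Egr2 and Irf4, which encode transcription factors. Stat6, Il4ra and Kdm6b, whose products carry or modify the IL-4 response, were called in both. For H3K27ac the counts were 16 (88.9%) and 17 (94.4%), for H3K4me3 in PIM 18, and for H3K27me3 2 (11.1%) in BMDM (Egr2 and Irf4) and 3 (16.7%) in PIM, with Pparg added. Pparg thus had H3K18la, H3K27ac, H3K4me3 and H3K27me3 on its promoter in PIM and, in BMDM, none of the 3 marks measured there.

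Of 16 genes of lipid handling and phagocytosis, 12 (75%) had H3K18la in BMDM and 15 (93.8%) in PIM. Apoe, Lpl and Lipa were added, 18.8% of the list against 20.6% of all genes. Tyrobp, the signalling adaptor of Trem2, was called in both. H3K27ac was called on 14 (87.5%) and 15 (93.8%), H3K4me3 on 15 in PIM, and H3K27me3 on 0 in BMDM and 4 in PIM (Mertk, Cd9, Gas6 and Cd63), where 25% is near the 26.4% of all genes. Of 12 receptors and metabolic partners of the panel, 8 (66.7%) had H3K18la in BMDM and 10 (83.3%) in PIM, with 3 (25%) in PIM and not BMDM, near the 20.6% of all genes. The Spp1 receptor genes Cd44, Itgav and Itgb3 were called in both, Igf1r in PIM alone, and Itgb1 in BMDM alone. Their H3K27ac counts were 7 (58.3%) and 9 (75%), H3K4me3 was called on all 12 in PIM, and H3K27me3 on 3 (25%) in BMDM and 4 (33.3%) in PIM, against 19.2% and 26.4% of all genes.

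Inflammatory genes were marked as well. Of 16, 9 (56.2%) had H3K18la in BMDM and 13 (81.2%) in PIM, with Ptgs2, Ccr2, Il23a, Il12b and Ly6c2 (31.2%, against 20.6% of all genes) in PIM alone and Nos2, the inducible nitric oxide synthase, in BMDM alone. H3K27ac was called on 8 (50%) and 9 (56.2%), against 34.0% and 48.8%, H3K4me3 on 12 (75%) in PIM, and H3K27me3 on 1 in BMDM (Nos2) and 3 (18.8%) in PIM (Ptgs2, Nos2 and Acod1).

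Markers were used to check the labels. All 8 macrophage markers (Ptprc, Spi1, Fcgr1, Itgam, Lyz2, Cd68, Adgre1 and Csf1r) had H3K18la and H3K27ac in both lists and H3K4me3 in PIM, and none had H3K27me3. None of the 8 skeletal muscle, 6 fibroblast, 5 lymphocyte and 4 stem cell markers had H3K18la or H3K27ac in BMDM or PIM, and in PIM H3K4me3 was on 1 muscle marker (Ckm) and 2 fibroblast markers (Pdgfra and Col1a1). For all marker lists, promoter H3K18la is set beside 18.5% of all genes in BMDM and 37.8% in PIM, and H3K27ac beside 34.0% and 48.8%. H3K4me3 is set beside 59.4% of all genes in PIM, and H3K27me3 beside 19.2% in BMDM and 26.4% in PIM. Of 5 endothelial markers, 2 (40%) had H3K18la in BMDM and 3 (60%) in PIM, 3 had H3K27ac in each, and 4 had H3K4me3 in PIM. Of 6 neutrophil markers, 1 (16.7%) had H3K18la in BMDM (S100a8) and 4 (66.7%) in PIM (Cxcr2, S100a8, Mpo and Ly6g), 0 and 1 had H3K27ac, and 2 had H3K4me3 in PIM. Of 4 dendritic cell markers, 0 had H3K18la in BMDM and 1 (Xcr1) in PIM, 0 had H3K27ac in either, and 2 had H3K4me3 in PIM. Of 3 adipocyte markers, 1 (Adipoq) had H3K18la in each, 0 had H3K27ac in either, and 1 had H3K4me3 in PIM. Their part in the difference between BMDM and PIM was not tested.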

How the data were processed

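Per the labels and the study's methods, CUT&Tag reads were trimmed (Trim Galore 0.6.6), aligned to mm10 (Bowtie2 2.4.4), turned into fragment coverage (bedtools 2.30) and called with SEACR 1.3 in stringent mode, keeping a fixed top share of regions; coverage of the samples of a group was combined before calling. The deposited lists give the total and the maximum signal of each peak, as coverage not scaled for depth, so signal was ranked within a list and never compared between lists. No filter on mapping quality or duplicates is given in the sources used here. Read totals were not used here, so widths and calls were not adjusted for depth, and its part in them was not tested. 0 columns were left unassigned. Lists named ESC without a medium were taken as ESC-ser.

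Gene positions were those of GENCODE release M21. A promoter was called when a peak overlapped any TSS by 2000 bp on either side (at least 1 bp), and windows spanned the gene and 20 kb on each side. Interval functions written in Python 3 (pandas, numpy) were tested on simulated data against bedtools, with 0 differences. With 1 pooled list per group there was no test; counts are set beside all protein-coding genes or all peaks of the list. The genes described were the 9 named, the genes of 5 pathway and 9 marker lists, and neighbours whose promoter lay under a window peak. 1 further gene of the panel and 1 regulator are not reported here. The members and lists were chosen with earlier results of these data known. Alternatives to each threshold were computed and are given at the end.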

Additional observations from a re-analysis of the deposited data

How the results depend on the processing

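No paired analysis was possible because each list pools its samples, and leaving out a replicate could not be run for the same reason. Of 118 recomputed counts and medians for the macrophage lists, 104 stayed within 1.5 times the reported one. The limit of 1.5 times passes counts of 0 that stayed 0 and moves from 7 to 6. Of the window shares of single genes, recomputed with flanks of 5000 bp, 6 moved by more than that: Igf1 from 12.6% to 6.18%, Spp1 from 25.5% to 45.8%, Trem2 from 25.8% to 55.6% and Retnla from 3.93% to 0% in PIM, and Trem2 from 6.97% to 18.7% and Cd163 from 1.91% to 0.886% in BMDM. With the 5000 strongest peaks of each list, H3K18la promoter counts became 4 in BMDM, against 4.72% of all genes, and 6 in PIM, against 7.69%. H3K27ac counts became 3 in BMDM, against 16.0%, and 3 in PIM, against 19.1%. Genes called in 1 macrophage type only became 2 in PIM for H3K18la and 2 in BMDM for H3K27ac. The share of all genes with these last patterns was not computed at this setting. With the stronger 50% of peaks, the H3K27ac counts were 3 in BMDM, against 20% of all genes, and 4 in PIM, against 37.3%. Among these, 1 gene was in BMDM only. With the larger list of each pair reduced to the called bases of the smaller, PIM H3K18la kept 4374 of 32066 peaks and 6 of its 7 genes, losing Cd163, while 6.84% of all promoters were called against 18.5% in BMDM, so 1 gene was in BMDM only. In that setting BMDM H3K27ac counted 3, against 27.7% of all promoters, losing Spp1 and Tgfbi, and 4 genes were in PIM only. Restricting to protein-coding TSS left 1 gene with H3K27ac in PIM only. PIM H3K27me3 fell in 2 windows rather than 4 for the gene body alone and likewise without peaks over the promoter of another gene. A promoter half-width of 1000 bp and an overlap of 200 bp changed no macrophage promoter count. Every count rests on a single pooled list, so the spread between animals is unknown.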
